A study of Mus musculus with 10 samples.

Results

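Target genes of the sterol regulatory element-binding proteins (SREBPs) are known to go up when SREBP activity is raised and down when it is lost. The genes described here went another way. Tnfrsf12a was higher, and Deptor, Ttc39c and Serpina4-ps1 were lower, both in mouse livers with an active SREBP-1a transgene and in livers that lack SCAP. Fam25c, taken as their contrast, was lower with the transgene and higher without SCAP. The 5 genes were chosen by their changes in these same comparisons, among 7542 genes with a probe set of their own, so their levels are given as a description and no test is made on them. They are read by 9 of 12411 probe sets: 3 for Deptor, 2 each for Ttc39c and Fam25c, and 1 each for Tnfrsf12a and Serpina4-ps1. All 9 were kept, since no filter on low values was used.

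Expression was measured in liver RNA of male mice on 10 Affymetrix MG_U74Bv2 arrays in 5 groups. TgSREBP-1a and TgSREBP-2 mice carry the transcriptionally active nuclear form of human SREBP-1a or human SREBP-2, and wild type (WT) littermates were their controls. These 3 groups were 12 to 16 weeks old and had been on a high protein/low carbohydrate diet, given for 2 weeks to raise the expression of the transgenes. Scap-/- mice (Scap-/-;MX1-Cre) and their WT controls were 10 to 12 weeks old, ate Teklad chow, and both received 4 intraperitoneal injections of polyinosinic-polycytidylic acid, with livers taken 14 days after the last. MX1-Cre is switched on by interferon, which that compound induces, so the WT mice of the Scap study share the interferon stimulus but the labels do not say whether they carry the Cre. The sources used here do not give the promoter that drives the transgenes. The RNA of a group was a single pool of 20 µg, made from equal parts of 5 livers and put on 2 arrays. Errors are limma standard errors of a log2 difference, with n = 2 arrays per group. They cover hybridisation error and not the spread between mice. In whole liver, fewer cells of a type and less RNA per cell cannot be told apart.

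SREBPs are membrane-bound transcription factors of lipid synthesis. SCAP, a sterol sensor, escorts their precursors from the endoplasmic reticulum to the Golgi, where proteases release the nuclear form. SREBP-1a drives genes of both fatty acid and cholesterol synthesis, and SREBP-2 acts mainly on cholesterol synthesis. The transgenes code for forms that need no such release, so they act without SCAP.

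Duplicate arrays correlated with r between 0.9871 and 0.9944. The Scap-/- and WT arrays of the Scap study were mixed in this respect, since each of the 4 had its closest partner in the opposite pool and not in its duplicate. The second TgSREBP-2 array was closer to an array of its WT pool (0.9915) than to its duplicate (0.9891). On its brighter probe set, Scap read 7.94 and 7.75 in Scap-/- livers, against 9.24 and 8.89 in WT livers, a log2 difference of -1.22 ± 0.18. The position of its probes relative to the deletion is unknown here. Only 3 of 12 hepatocyte markers could be read (Apoa1, C8a and Hnf4a), with values given beside those of other cell types further on.

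Tnfrsf12a (probe set 108539_at) codes for Fn14, the receptor of the cytokine TWEAK and a small member of the TNF receptor superfamily. In liver it is known as a receptor that appears on injured or regenerating tissue and acts on progenitor cells. Promoter windows from RefSeq (GRCm38.p6) were matched for 2 of the 5 genes, Tnfrsf12a and Fam25c, and both are shown, since they set a gene with changes of equal sign beside the contrast. Each window covers 250 bases before and 50 after the start of the gene, at chr17:23677400-23677699 for Tnfrsf12a and at chr14:34355344-34355643 for Fam25c, and is written 5′ to 3′ on the gene's strand, which is the minus strand in both cases. Capitals mark the letters GGGCGG, or their reverse complement, the core of a GC box.
Tnfrsf12a: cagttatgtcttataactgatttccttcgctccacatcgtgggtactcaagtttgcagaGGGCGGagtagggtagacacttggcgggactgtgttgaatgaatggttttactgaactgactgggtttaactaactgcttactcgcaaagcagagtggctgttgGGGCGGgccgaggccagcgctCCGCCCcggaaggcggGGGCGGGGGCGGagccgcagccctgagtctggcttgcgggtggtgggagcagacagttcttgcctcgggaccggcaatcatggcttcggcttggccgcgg
Fam25c: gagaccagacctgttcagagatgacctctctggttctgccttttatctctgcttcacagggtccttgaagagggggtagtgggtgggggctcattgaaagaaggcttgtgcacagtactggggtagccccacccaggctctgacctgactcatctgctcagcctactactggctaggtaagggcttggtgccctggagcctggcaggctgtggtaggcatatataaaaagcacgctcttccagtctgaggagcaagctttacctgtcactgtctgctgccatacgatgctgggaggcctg

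Both strands of the windows were searched for 4 motifs. The sterol regulatory element, which SREBPs bind, was spelled TCACNCCAC. The E-box, which they bind as well, was spelled with the letters CACGTG. The remaining motifs were the CCAAT box, taken as those 5 letters, and the GC box above. The Tnfrsf12a window holds 5 matches to the GC box, of which the last 2 on the plus strand lie end to end, and none to the other motifs. The Fam25c window holds no match to any of the 4. Among 32851 mouse promoter windows of the same length, 1.24% hold the sterol regulatory element, 7.15% the E-box, 37.4% the CCAAT box and 35.7% the GC box. G and C make up 59.7% of the Tnfrsf12a window and 55.3% of the Fam25c window, with a median of 52.7% over all windows. A match describes the letters and is no evidence of binding, and a missing match says only that these letters are not in this window.

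Tnfrsf12a read 9.0 and 8.74 in TgSREBP-1a livers and 7.28 and 7.38 in TgSREBP-2 livers, against 7.60 and 7.42 in their WT livers (log2 expression). It read 8.05 and 7.98 in Scap-/- livers, against 7.18 and 7.11 in WT livers of that study. Both TgSREBP-1a arrays and both Scap-/- arrays stood above every WT array of either study, while the TgSREBP-2 arrays lay just below their WT arrays. The difference was 1.36 ± 0.11 (2.57-fold higher) in TgSREBP-1a, -0.18 ± 0.11 in TgSREBP-2 and 0.87 ± 0.11 (1.82-fold higher) in Scap-/-. Set directly against each other, TgSREBP-1a exceeded TgSREBP-2 by 1.54 ± 0.11 (2.91-fold). The order of the pools was TgSREBP-1a, Scap-/-, WT of the transgenic study, TgSREBP-2 and WT of the Scap study, and no neighbouring pair overlapped between arrays, although the gaps among the 3 lowest pools were only 0.18 each.

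**Figure D1:**
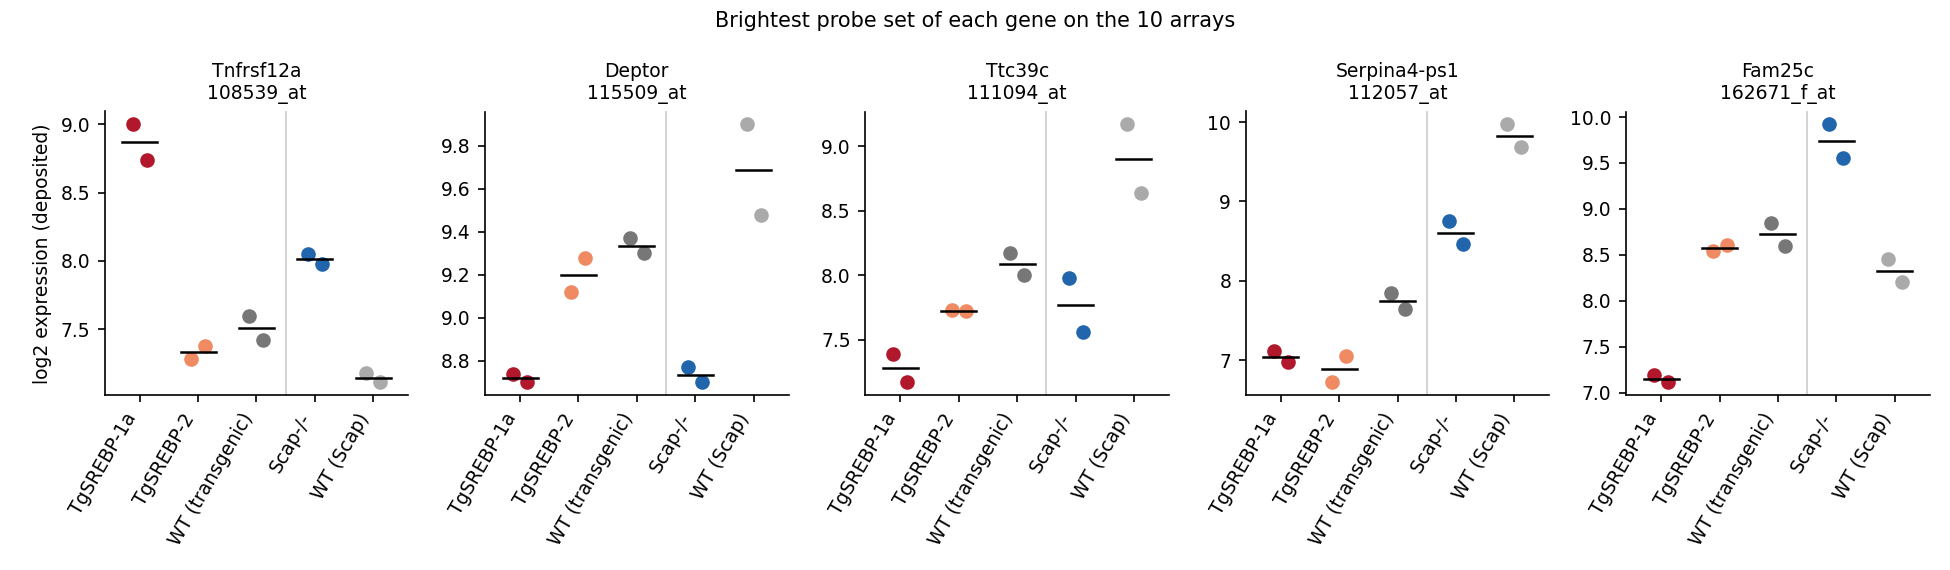
Deposited log2 expression (vertical axes, each with its own range) of the brightest probe set of each of the 5 genes. Points are the 2 arrays of each group and bars their mean, and a grey line separates the transgenic study from the Scap study. Tnfrsf12a stands highest in TgSREBP-1a and next in Scap-/-, Deptor stands lowest in the same groups, and Fam25c stands lowest in TgSREBP-1a and highest in Scap-/-.

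Deptor codes for an inhibitory subunit that binds the kinase mTOR in both of its complexes. On its brightest probe set, 115509_at, Deptor read 8.74 and 8.70 in TgSREBP-1a livers and 9.12 and 9.28 in TgSREBP-2 livers, against 9.37 and 9.30 in WT livers. It read 8.77 and 8.70 in Scap-/- livers, against 9.90 and 9.48 in WT livers. The TgSREBP-1a and Scap-/- arrays shared the lowest level and overlapped, 4 arrays between 8.70 and 8.77, below all arrays of the other groups. The difference was -0.62 ± 0.13 (1.53-fold lower) in TgSREBP-1a, -0.13 ± 0.13 in TgSREBP-2 and -0.95 ± 0.13 (1.94-fold lower) in Scap-/-. Both arrays lay below both of their own WT arrays for 23.4% of all probe sets in TgSREBP-1a and 14.4% in Scap-/-.

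The other 2 Deptor probe sets had the same signs. On 108054_at the differences were -0.79 ± 0.21 in TgSREBP-1a, -0.21 ± 0.21 in TgSREBP-2 and -0.96 ± 0.21 in Scap-/-. On 113324_at they were -0.76 ± 0.26, -0.20 ± 0.26 and -0.93 ± 0.26 in the same order. The duplicates of the Scap-/- pool stood far apart on both, with 7.23 and 6.61 on 108054_at and 7.18 and 6.39 on 113324_at. With 1 array of either pool left out, the Scap-/- difference ranged from -1.28 to -0.65 on 108054_at and from -1.33 to -0.54 on 113324_at, while on 115509_at it ranged from -1.16 to -0.74. In TgSREBP-2 the arrays overlapped with WT on both dimmer probe sets, and the difference on 113324_at ranged from -0.43 to 0.03. Over the 10 arrays the 3 probe sets correlated with each other at r between 0.913 and 0.990.

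Ttc39c codes for a protein with tetratricopeptide repeats, which are protein-binding folds. On its brighter probe set, 111094_at, it read 7.39 and 7.17 in TgSREBP-1a livers and 7.73 and 7.72 in TgSREBP-2 livers, against 8.17 and 8.0 in WT livers. It read 7.98 and 7.56 in Scap-/- livers, against 9.17 and 8.64 in WT livers. Both arrays of each transgenic or knockout pool lay below both arrays of its own WT pool. The same held for 23.4% of all probe sets in TgSREBP-1a, 24.4% in TgSREBP-2 and 14.4% in Scap-/-, each comparison taken alone. The difference was -0.81 ± 0.18 (1.75-fold lower) in TgSREBP-1a, -0.36 ± 0.18 in TgSREBP-2 and -1.14 ± 0.18 (2.20-fold lower) in Scap-/-. The dimmer probe set, 106618_at, gave smaller differences of the same sign, -0.54 ± 0.11, -0.22 ± 0.11 and -0.31 ± 0.11. Its 1.45-fold difference in TgSREBP-1a lay just outside the 1.5-fold limit used here, and the 1.53-fold difference of Deptor on 115509_at just inside. The mean of both Ttc39c probe sets put the Scap-/- difference at -0.72.

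Serpina4-ps1 is annotated as a transcribed pseudogene, related to the gene of kallistatin, a serpin that inhibits tissue kallikrein in humans. Its probe set 112057_at read 7.11 and 6.98 in TgSREBP-1a livers and 6.72 and 7.05 in TgSREBP-2 livers, against 7.85 and 7.65 in WT livers. It read 8.75 and 8.46 in Scap-/- livers, against 9.97 and 9.68 in WT livers. Here both transgenic lines were lower than WT and overlapped with each other, which was not the case on the brightest probe sets of the other 4 genes. The difference was -0.71 ± 0.15 (1.64-fold lower) in TgSREBP-1a, -0.87 ± 0.15 (1.83-fold lower) in TgSREBP-2 and -1.22 ± 0.15 (2.33-fold lower) in Scap-/-.

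The WT pools themselves differed by more than any of these changes for Serpina4-ps1. The WT pool of the transgenic study was lower than that of the Scap study by 2.07 on the log2 scale (difference -2.07 ± 0.15, 4.20-fold), so that Scap-/- livers still read above WT livers of the transgenic study. Ttc39c on 111094_at was lower there too (-0.82 ± 0.18, 1.76-fold). Past 1.5-fold and lower were 1.22% of all probe sets in this comparison, whose pools differ in diet, age and injections. Deptor on 115509_at differed by -0.36 ± 0.13, Tnfrsf12a by 0.36 ± 0.11 and Fam25c on 162671_f_at by 0.40 ± 0.14. These differences use the same WT arrays as the changes that chose the genes. Cholesterol synthesis genes such as Pmvk, Idi1 and Cyp51 also differed between the WT pools. Their means were 6.58, 5.53 and 5.09 in WT of the transgenic study, and 8.23, 7.36 and 6.32 in WT of the Scap study. The transgenic lines and Scap-/- were thus set against WT pools with different levels of these genes.

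Fam25c codes for a small protein of the FAM25 family. Its probe set 162671_f_at, whose suffix marks probes that can match related sequences, read 7.19 and 7.11 in TgSREBP-1a livers and 8.54 and 8.61 in TgSREBP-2 livers, against 8.85 and 8.60 in WT livers. It read 9.92 and 9.55 in Scap-/- livers, against 8.45 and 8.20 in WT livers. The lowest 2 arrays of the series were those of TgSREBP-1a and the highest 2 those of Scap-/-, with TgSREBP-2 and both WT pools between. The difference was -1.58 ± 0.14 (2.99-fold lower) in TgSREBP-1a, -0.16 ± 0.14 in TgSREBP-2 and 1.41 ± 0.14 (2.65-fold higher) in Scap-/-. Among all probe sets, both arrays lay below both own WT arrays for 23.4% in TgSREBP-1a, and above them for 20.0% in Scap-/-.

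The second Fam25c probe set, 164424_at, did not share this pattern. It read 6.01 and 6.13 in TgSREBP-1a livers and 7.52 and 6.70 in TgSREBP-2 livers, against 6.35 and 6.14 in WT livers, and 6.32 and 6.14 in Scap-/- livers, against 6.01 and 6.08 in WT livers. Its differences were -0.17 ± 0.21 in TgSREBP-1a, 0.86 ± 0.21 in TgSREBP-2 and 0.18 ± 0.21 in Scap-/-, and over the 10 arrays it correlated with 162671_f_at at r = 0.175. The signs in TgSREBP-1a and in Scap-/- were those of the brighter probe set, at a much smaller size. Its 1 large difference rested on the first TgSREBP-2 array: without that array it was 0.45, and without the second 1.27. The mean of both probe sets gave -0.88 in TgSREBP-1a, 0.35 in TgSREBP-2 and 0.80 in Scap-/-.

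**Figure D2:**
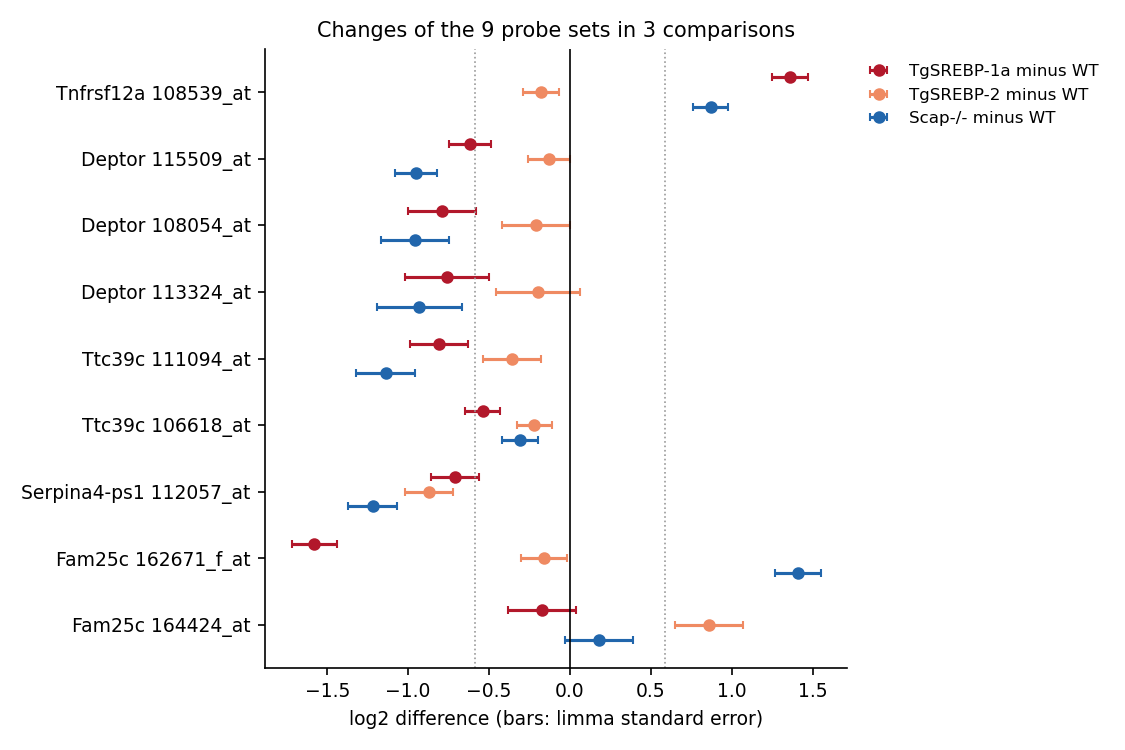
Log2 differences (horizontal axis) of the 9 probe sets in TgSREBP-1a, TgSREBP-2 and Scap-/-, each minus its own WT pool, with bars of 1 limma standard error. Dotted lines mark 1.5-fold. The red and blue points lie on the same side of 0 for Tnfrsf12a, Deptor, Ttc39c and Serpina4-ps1, and on opposite sides for Fam25c.

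Over all probe sets, 1.79% were higher and 1.15% lower past 1.5-fold in TgSREBP-1a, 0.733% higher and 0.54% lower in TgSREBP-2, and 0.25% higher and 1.11% lower in Scap-/-. Of the 9 probe sets, 1 was higher and 6 lower past that limit in TgSREBP-1a, 1 higher and 1 lower in TgSREBP-2, and 2 higher and 5 lower in Scap-/-. The genes were picked for such changes, so nothing is read from these counts. TgSREBP-1a and TgSREBP-2 share their WT arrays.

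Movement in the same direction with gain and loss was mostly downward. Lower past 1.5-fold in both TgSREBP-1a and Scap-/- were 24 probe sets (0.193%), which is 16.8% of the 143 lower in TgSREBP-1a and 17.4% of the 138 lower in Scap-/-. Of these 24, 19 carried 1 symbol and stood for 17 genes, and 5 read Deptor, Ttc39c or Serpina4-ps1. Higher in both were 2 probe sets (0.0161%), of which Tnfrsf12a was the 1 with a symbol. In TgSREBP-1a 222 probe sets were higher past 1.5-fold, but in Scap-/- 31 were, so fewer could be higher in both than lower in both. Lower in TgSREBP-1a and higher in Scap-/- was 1 probe set (0.00806%), that of Fam25c. The pattern typical of SREBP targets, higher in TgSREBP-1a and lower in Scap-/-, held 42 probe sets (0.338%). These counts are of fold changes alone, with no test. The 26 probe sets that were lower in both or higher in both became 50 without the first Scap-/- array, 16 without the second, and 55 without the second WT array of that study.

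The company of the genes that were lower in both can be named by a fixed order, the smaller of the 2 changes. Cpb1 (-4.67 ± 0.21 in TgSREBP-1a and -3.21 ± 0.21 in Scap-/-) and Cela3b (-3.84 ± 0.16 and -1.89 ± 0.16), digestive enzymes of the pancreas, came first. Tdo2, the tryptophan dioxygenase of hepatocytes, followed with -1.07 ± 0.28 and -1.04 ± 0.28. Next came the glucuronosyltransferase Ugt2b1, Ttc39c, Deptor, the sulfotransferase Sult2a8, the steroid dehydrogenase Hsd17b6 and the growth factor receptor Egfr. For Sult2a8 (-2.53 ± 0.25 and -0.79 ± 0.25) and Egfr (-2.48 ± 0.22 and -0.71 ± 0.22) the change in TgSREBP-1a was much the larger, while for Deptor, and for Ttc39c on 111094_at, the change in Scap-/- was the larger.

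With TgSREBP-2 in place of TgSREBP-1a, 13 probe sets (0.105%) were lower in both that line and Scap-/-, among them Serpina4-ps1 but neither Deptor nor Ttc39c. The first by the same order was Rarres1, a retinoic acid-responsive gene, with -0.90 ± 0.21 in TgSREBP-2 and -1.42 ± 0.21 in Scap-/-, though it was higher in TgSREBP-1a (1.78). Lower in all 3 were 9 probe sets (0.0725%), 7 of them with 1 symbol: Serpina4-ps1, Sult2a8, Hsd17b6, Egfr, Gm4952, Ugt2b1 and Cpeb4. Serpina4-ps1 alone of these 7 had its largest change in Scap-/-.

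**Figure D3:**
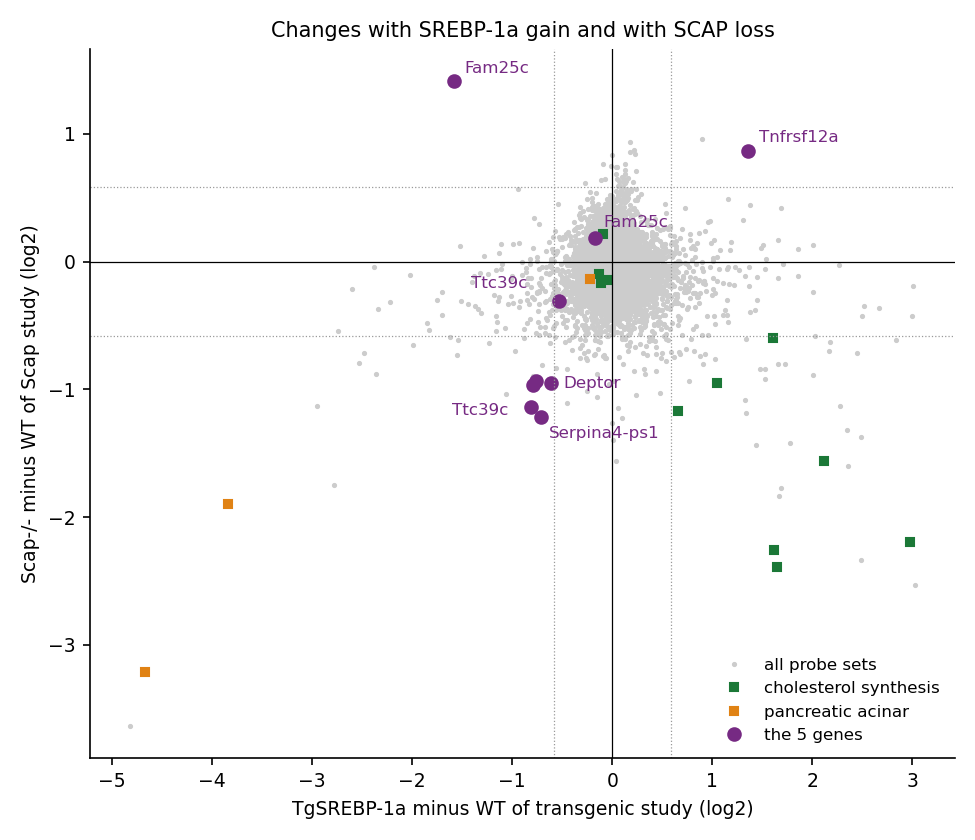
Log2 difference of TgSREBP-1a from its WT pool (horizontal axis) against that of Scap-/- from its WT pool (vertical axis) for all 12411 probe sets (grey), with the 5 genes in purple, cholesterol synthesis in green and pancreatic acinar genes in orange. Dotted lines mark 1.5-fold. Tnfrsf12a lies at the upper right, Deptor, Serpina4-ps1 and the brighter probe set of Ttc39c at the lower left near the cloud, the brighter probe set of Fam25c at the upper left, and cholesterol genes such as Pmvk, Idi1 and Cyp51 at the lower right. The dimmer probe sets of Ttc39c and Fam25c lie within the cloud or at its edge.

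Markers of other cells moved in some of the same comparisons. Of 12 pancreatic acinar genes 3 could be read (Cpb1, Cela3b and Ctrc), none of them at 0, and their summed linear values were 227 to 228 in TgSREBP-1a and 3220 to 4230 in TgSREBP-2, against 1970 to 2640 in WT livers, and 260 to 269 in Scap-/-, against 912 to 1110 in WT livers. This sum was lower in TgSREBP-1a and in Scap-/-, and higher in TgSREBP-2. The lower sums came from Cpb1 and Cela3b, since Ctrc differed by only -0.22 ± 0.10 in TgSREBP-1a and -0.13 ± 0.10 in Scap-/-. In TgSREBP-2 Ctrc differed by 1.51 ± 0.10, Cpb1 by 0.63 ± 0.21 and Cela3b by 0.63 ± 0.16. Of 10 endothelial markers 5 could be read, with sums of 844 to 905 in TgSREBP-1a and 684 to 689 in TgSREBP-2, against 731 to 780 in WT livers, and 732 to 801 in Scap-/-, against 798 to 820 in WT livers. Of 10 Kupffer cell or macrophage markers 2 could be read (Cd163 and Timd4), with sums of 64.2 to 69.3 in TgSREBP-1a and 33.2 to 41.2 in TgSREBP-2, against 40.5 to 41.4 in WT livers, and 32.8 to 36.9 in Scap-/-, against 38.8 to 40.4 in WT livers. The endothelial and macrophage sums were higher in TgSREBP-1a and not in Scap-/-, but the markers within them differed. In TgSREBP-1a Cd163 differed by 0.91 ± 0.15 and Timd4 by 0.07 ± 0.11. Of the endothelial markers, Lyve1 differed there by 0.64 ± 0.10, Ptprb by 0.50 ± 0.18 and Eng by 0.22 ± 0.10. Stab2 differed by only 0.10 ± 0.11 and Stab1 by 0.01 ± 0.11. The 3 hepatocyte markers summed to 8570 to 9310 in TgSREBP-1a and 6440 to 12100 in TgSREBP-2, against 11700 to 13000 in WT livers, and to 9900 to 11500 in Scap-/-, against 11700 to 12800 in WT livers. This sum was lower without overlap in TgSREBP-1a and in Scap-/-. Apoa1 was by far the brightest of the 3 markers and made up most of the sum. On its own it differed by -0.42 ± 0.26 in TgSREBP-1a, -0.57 ± 0.26 in TgSREBP-2 and -0.19 ± 0.26 in Scap-/-. Of the 3, C8a, a chain of a complement component, fell in TgSREBP-1a (-2.60 ± 0.24, limma, adjusted p = 0.000184), and 0 were called by limma in TgSREBP-2 or Scap-/-, with 0 and 0 at an unadjusted p under 0.05. The part of these cells in the levels of the 5 genes was not tested.

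Likeness was measured as Pearson's r over the 10 arrays, which share 5 pools and 1 normalization, among the 996 probe sets whose group means spanned at least 1.5-fold. It is a description of these arrays. The ranking was repeated with each study centred on its own mean, a setting chosen after seeing the data. The probe sets most like Tnfrsf12a were those of Tm4sf4, a tetraspanin-like membrane protein (r = 0.946), the transcription factor Sox4 (0.943), Atl3, which shapes the endoplasmic reticulum (0.942), the hyaluronan receptor Lyve1 (0.942) and the endothelial proteoglycan Esm1 (0.921). Tm4sf4 differed by 0.96 in TgSREBP-1a and 0.31 in Scap-/-, and Sox4 by 1.16 and 0.49. Lyve1 and Esm1 differed by 0.64 and 0.80 in TgSREBP-1a and by only 0.16 and 0.12 in Scap-/-. With each study centred, Sox4, Tm4sf4 and Lyve1 stayed among the nearest 5, behind the lipid droplet protein Hilpda (0.971) and the kinetochore protein Spc24 (0.966). Spc24 differed by 0.53 in TgSREBP-1a and 0.45 in Scap-/-.

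Deptor was most like the clock output factor Hlf (0.897) and Ttc39c (0.887), followed by Ugt3a2 (0.874), N4bp2 (0.871) and Nxt2 (0.867). Hlf differed by -0.50 in TgSREBP-1a, 0.02 in TgSREBP-2 and -0.48 in Scap-/-. With each study centred, Ttc39c was the 1 of these 5 that stayed, and Hlf was no longer among the nearest. Ttc39c was most like Tdo2 (0.968), Slco2b1, an organic anion transporter (0.956), Afmid, the formamidase that follows Tdo2 in the breakdown of tryptophan (0.956), Dexi (0.949) and Atxn1 (0.944). Afmid differed by -0.63 in TgSREBP-1a, -0.39 in TgSREBP-2 and -0.64 in Scap-/-, with the signs of Tdo2 (-1.07, -0.41 and -1.04) at a smaller size in TgSREBP-1a and in Scap-/-. With each study centred, Tdo2 was the 1 of these 5 that stayed.

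Serpina4-ps1 was most like the carboxylesterase Ces2a (0.977), the lectin Lman2 (0.973), Fzd8 (0.970), Cpsf1 (0.968) and Higd1a (0.963). These 5 shared with it a lower WT level in the transgenic study, by -1.57 for Ces2a and by -0.46 to -0.91 for the others. With each study centred, the carboxylesterase Ces1e came first (0.966) and only Lman2 remained of the 5. With that centring Deptor and Ttc39c were the nearest to each other, at r = 0.970 between their brightest probe sets. Tnfrsf12a ran opposite to Deptor (-0.798) and to Ttc39c (-0.724), and Serpina4-ps1 ran with Deptor (0.836) and Ttc39c (0.890). These genes were chosen by their changes on the same arrays, so the r values among them partly follow from that choice.

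Fam25c was most like Enho, which codes for the secreted peptide adropin (0.925), Ldhd, the D-lactate dehydrogenase, on 2 probe sets (0.914 and 0.901), Lin7a (0.876) and Asb2 (0.865). Enho differed by -0.94 in TgSREBP-1a, 0.15 in TgSREBP-2 and 0.57 in Scap-/-. Ldhd on its nearer probe set differed by -0.54, 0.06 and 0.45. Both thus had the signs of Fam25c in TgSREBP-1a and in Scap-/-, at a smaller size, and Enho and both Ldhd probe sets stayed nearest after centring each study.

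**Figure D4:**
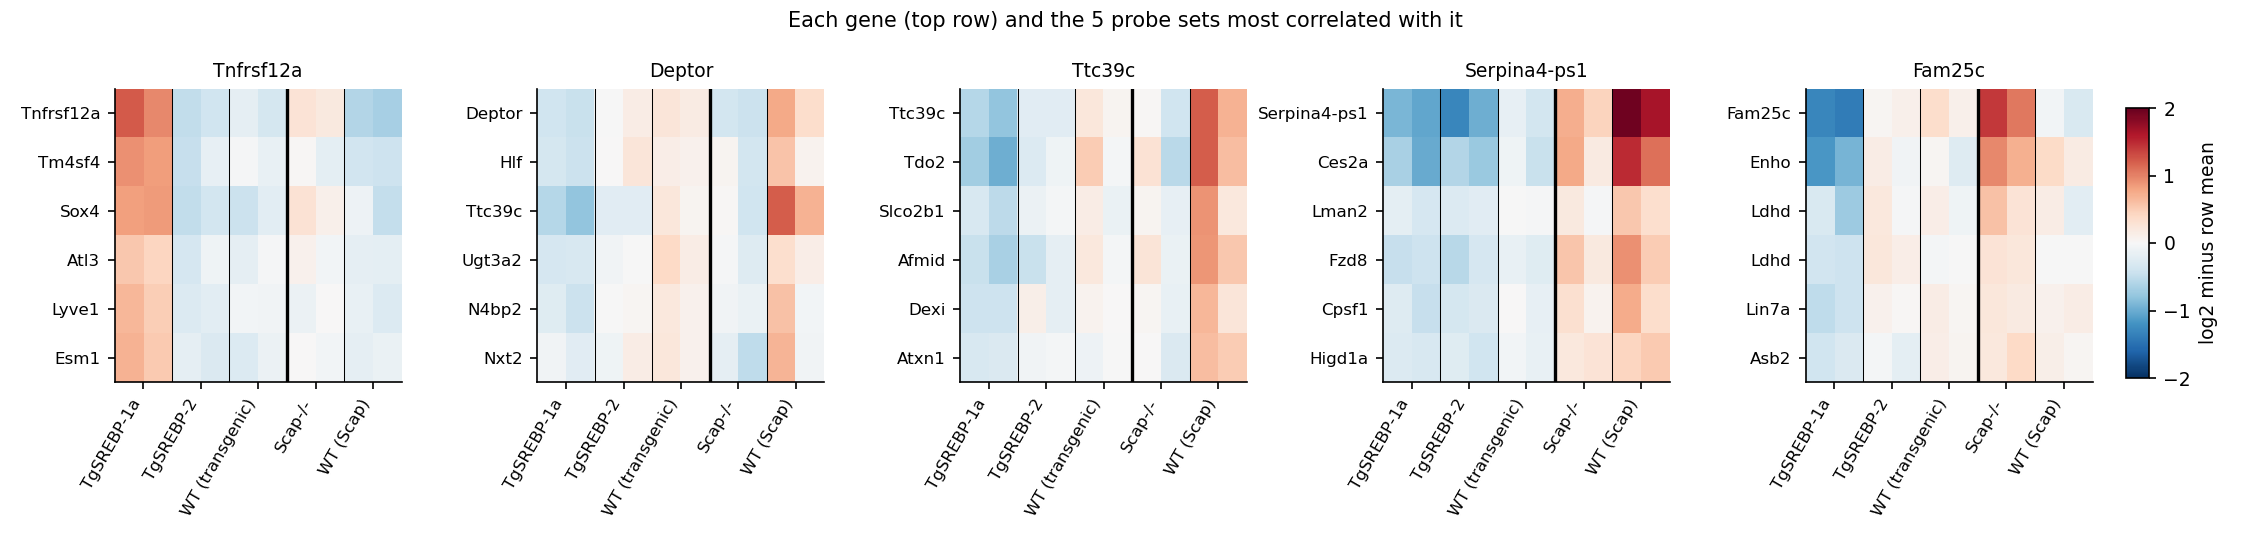
Log2 expression minus the mean of each row (colour, red above and blue below the mean) for each of the 5 genes (top row of each panel) and the 5 probe sets most correlated with it, on the 10 arrays (columns, 2 per group, the studies parted by a thick line). Neighbours of Tnfrsf12a are red in TgSREBP-1a and pale in Scap-/-, and neighbours of Serpina4-ps1 are blue in both transgenic lines and pale to blue in their WT pool.

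The genes that work with the 5 were followed through lists, each gene read by its brightest probe set. A listed gene was called by limma at an adjusted p under 0.05 over all probe sets with a change of at least 1.5-fold. This rule called 1.36% of probe sets higher and 0.814% lower in TgSREBP-1a, 0.338% higher and 0.161% lower in TgSREBP-2, and 0.0161% higher and 0.258% lower in Scap-/-.

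Around Tnfrsf12a, 7 of 29 genes of TWEAK receptor signalling were measured, and neither TWEAK itself (Tnfsf12) nor the adaptor Traf2 had a probe set of its own symbol. In TgSREBP-1a 1 of the 7 rose, Cd163, a scavenger receptor of macrophages that also binds TWEAK. It read 5.71 and 5.80 in TgSREBP-1a livers, against 4.82 and 4.88 in WT livers (0.91 ± 0.15, limma, adjusted p = 0.008), and the call was lost without any 1 of these 4 arrays. In TgSREBP-2 and in Scap-/- 0 of the 7 were called by limma, and 0 had an unadjusted p under 0.05. The list medians were 0.00, 0.03 and 0.04 in TgSREBP-1a, TgSREBP-2 and Scap-/-, against -0.02, -0.02 and 0.02 over all probe sets. Birc3, a ubiquitin ligase on this path, differed by 0.20 ± 0.20 in TgSREBP-1a and 0.31 ± 0.20 in Scap-/-, and the kinase Ikbkb by 0.00 ± 0.09 and 0.06 ± 0.09. Ikbkg went the other way in TgSREBP-1a (-0.37 ± 0.10), without being called, and differed by 0.04 ± 0.10 in Scap-/-. In TgSREBP-1a 2 of the 7 had an unadjusted p under 0.05 by limma.

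Of 27 other TNF receptor superfamily genes 5 were measured. In TgSREBP-1a 1 rose, the decoy receptor Tnfrsf23 (0.60 ± 0.10, limma, adjusted p = 0.00826), and this call held only without the second WT array when arrays were left out in turn. In TgSREBP-2 and in Scap-/- 0 were called by limma, with 0 at an unadjusted p under 0.05. Tnfrsf23 differed by 0.04 ± 0.10 in Scap-/-, where Tnfrsf12a differed by 0.87 ± 0.11. Of 3 measured genes of liver progenitors and injury (Krt7, Krt23 and Sox9), 0 were called in any of the 3 comparisons by limma, with 0, 0 and 1 at an unadjusted p under 0.05. In Scap-/- Krt7 differed by 0.10 ± 0.10, Krt23 by 0.25 ± 0.11 and Sox9 by 0.08 ± 0.16. Of 4 immediate early genes Klf6, a zinc finger factor, rose in TgSREBP-1a (0.73 ± 0.16, limma, adjusted p = 0.0418), a call lost without any 1 of the 4 arrays compared. The median of these 4 was 0.09 in TgSREBP-1a, 0.01 in TgSREBP-2 and 0.31 in Scap-/-, with 0 called in the last 2 and 0 and 2 at an unadjusted p under 0.05.

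Around Deptor, 18 of 37 genes of the mTOR complexes and their regulators were measured, without Mtor itself. In TgSREBP-1a 1 rose, Rragd, a small GTPase that brings mTOR complex 1 to the lysosome (0.61 ± 0.11, limma, adjusted p = 0.0121). Its call was lost without the first TgSREBP-1a array or without either WT array. In TgSREBP-2 and Scap-/- 0 were called by limma, with 0 and 3 at an unadjusted p under 0.05, and 1 was called in Scap-/- without the second WT array. Rptor, the defining subunit of mTOR complex 1, differed by 0.11 ± 0.10, 0.01 ± 0.10 and 0.13 ± 0.10 in TgSREBP-1a, TgSREBP-2 and Scap-/-. Rictor, that of mTOR complex 2, differed by -0.03 ± 0.11, -0.04 ± 0.11 and 0.30 ± 0.11, and Btrc, an F-box protein that marks DEPTOR for destruction, by -0.05 ± 0.11, -0.15 ± 0.11 and -0.05 ± 0.11. The list medians were 0.00, -0.04 and -0.02, against -0.02, -0.02 and 0.02 over all probe sets, while Deptor differed by -0.62, -0.13 and -0.95.

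Of 12 measured genes that act downstream of mTOR or relay insulin signals to it, Lpin1 rose in TgSREBP-1a. This phosphatidate phosphatase, whose entry into the nucleus mTOR controls, differed by 1.30 ± 0.22 (2.47-fold, limma, adjusted p = 0.00956), a call lost without the first TgSREBP-1a or the second WT array. In TgSREBP-2 and Scap-/- 0 of the 12 were called by limma, with 0 and 0 at an unadjusted p under 0.05, and medians of 0.06 and -0.10. Of 13 measured circadian clock genes, Hlf among them, 0 were called in any of the 3 comparisons by limma, with 2 in each at an unadjusted p under 0.05.

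Around Serpina4-ps1, 3 of 25 clade A serpins and 4 of 17 other serpins were measured, and 0 of these were called in any comparison by limma. At an unadjusted p under 0.05 there were 1, 0 and 0 of the clade A serpins in TgSREBP-1a, TgSREBP-2 and Scap-/-, and 0, 1 and 0 of the others. The clade A members Serpina1f, Serpina3j and Serpina9 differed by 0.18 ± 0.11, 0.12 ± 0.10 and 0.08 ± 0.14 in Scap-/-, where Serpina4-ps1 differed by -1.22 ± 0.15. In TgSREBP-1a they differed by 0.07 ± 0.11, -0.16 ± 0.10 and -0.31 ± 0.14, where Serpina4-ps1 differed by -0.71 ± 0.15. Between the WT pools they differed by 0.19, 0.09 and 0.12, where Serpina4-ps1 differed by -2.07. Of 13 kallikrein and kinin genes 2 were measured and 0 called by limma, with 2, 0 and 0 at an unadjusted p under 0.05. Cpn2, the regulatory subunit of carboxypeptidase N, which cleaves kinins, differed by -1.16 ± 0.27 in TgSREBP-1a and -0.54 ± 0.27 in Scap-/- without passing the test. The measured relative of Ttc39c, Ttc39a, differed by 0.29 ± 0.12, 0.08 ± 0.12 and 0.31 ± 0.12 and was called in 0 comparisons by limma, with an unadjusted p under 0.05 in TgSREBP-1a and Scap-/-.

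Genes of lipid synthesis, measured on the same arrays, moved in opposite directions with gain and loss. For cholesterol synthesis, 6 of 8 genes rose in TgSREBP-1a and 7 in TgSREBP-2, and 6 fell in Scap-/-, with medians of 1.61, 2.11 and -1.37. Of 11 genes of fatty acid synthesis 8 rose in TgSREBP-1a and 4 in TgSREBP-2, and 3 fell in Scap-/-, with medians of 2.18, 0.70 and -0.71. With each array left out in turn, Idi1, Cyp51 and Acss2 kept their calls in all 3 comparisons, while others lost theirs in at least 1 case. These were Hsd17b7 and Acsl4 in TgSREBP-1a, Sc5d, Acaca, Fasn and Acsl3 in TgSREBP-2, and Pmvk, Nsdhl, Hsd17b7, Sc5d, Acacb and Fads2 in Scap-/-. The 4 fatty acid genes called in TgSREBP-2 became 1 without the second WT array and 2 without the first TgSREBP-2 array, and the 3 in Scap-/- became 1 without the second Scap-/- array or the first WT array. The 6 cholesterol genes called in Scap-/- became 2 and 3 without these arrays in turn. Lists on the injections and on inflammation stood apart from both. Of 8 interferon-stimulated genes 1 rose in TgSREBP-1a, Oasl1 (0.91 ± 0.10, limma, adjusted p = 0.000419), and 0 were called by limma in TgSREBP-2 or in Scap-/-, whose WT mice were injected too, with 2 and 1 at an unadjusted p under 0.05. Of 4 acute phase genes 3 fell in TgSREBP-1a (Saa4, Itih4 and Steap4) and 1 in TgSREBP-2 (Steap4), and 0 were called in Scap-/- by limma, with 2 at an unadjusted p under 0.05. The calls of Itih4 and Steap4 were lost in some fits with 1 array left out, and those of Oasl1 and Saa4 in none.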

How the data were processed

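The deposited values are log2 expression values of 12477 probe sets, made with RMA per the submitters' processing notes, which name no version. The series' design text names Microarray Suite 5.0. The medians of the arrays lay between 5.625 and 5.662. No values were normalized again. Leaving out 66 control probe sets, 12411 were fitted with limma 3.58.1 in R 4.3.3 (lmFit and eBayes, 1 coefficient per group, all 10 arrays), with two-sided Benjamini-Hochberg adjusted p-values. Symbols came from the platform annotation: 10581 probe sets had 1 symbol, 178 several and 1652 none. The procedure was tested on simulated data. The members, lists and markers were chosen with earlier results of these data known.

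Named were all probe sets of the 5 genes, the 5 nearest probe sets of each, up to 10 probe sets per pattern of equal direction, up to 4 called genes per list, and direct partners. Some uncalled list genes and markers are given outside this rule. The brightest probe set stood for a gene. Duplicate hybridisations share 1 RNA pool, so p-values say nothing about mice, and the number of arrays limits the precision (median standard error 0.115). Alternatives were each array left out, 4-array fits, a block, dim probe sets left out, other centring and fold limits.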

Additional observations from a re-analysis of the deposited data

How the results depend on the processing

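Of 171 alternative values for the changes of the 9 probe sets, 151 moved by less than 1 SD between duplicates, 20 moved further, and 0 of those past 1.5-fold changed sign. Leaving out 1 array moves a change by part of the gap between duplicates, from which this SD is taken. Most such moves were thus bound to be small, and their number is no measure of stability. Calls in TgSREBP-1a numbered 270, and 142 to 193 with 1 array left out (142 without the first TgSREBP-1a array, and 149 and 164 without the WT arrays). Calls in TgSREBP-2 numbered 62, and 25 to 124 with 1 array left out (39 and 124 without the TgSREBP-2 arrays, and 25 and 28 without the WT arrays). Calls in Scap-/- numbered 34, with 5 when the fit held only the 4 arrays of the comparison. Leaving out 1 array gave 10 to 68 (11 and 68 for the WT arrays in turn, and 10 for the second of Scap-/-). Probe sets with a same-sign change of at least 1.5-fold in TgSREBP-1a and Scap-/- numbered 26, then 16 to 55 with 1 array left out and 6 at a 2-fold minimum. In TgSREBP-2 and Scap-/- they numbered 14, then 7 to 27 with 1 array left out (7 and 27 without the WT arrays of the Scap study) and 1 at a 2-fold minimum. Taking the number of the hybridisation as a replicate block, calls numbered 335, 101 and 91 in TgSREBP-1a, TgSREBP-2 and Scap-/-. Deviations of same-numbered arrays from their group means correlated at 0.411, 0.0573 and 0.598 in these 3 comparisons, but the labels name no batch behind these numbers. In this fit 1 clock gene was called in TgSREBP-2 and 1 in Scap-/-, 1 mTOR regulator in Scap-/-, 1 kallikrein or kinin gene in TgSREBP-1a and 1 interferon-stimulated gene in TgSREBP-2, each against 0 without the block, and 5 fatty acid genes in Scap-/- against 3. Among counts of called list genes, 235 of 270 alternatives stayed within the limit of 1.5 times, 28 were lower and 7 higher. Most of these counts were 0 in the main fit and could not fall, so 235 is no measure of stability either. Fits that leave an array out also hold fewer arrays, and the cause of these shifts was not tested.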
